A study of Mus musculus with 6 samples.

Results

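The cytosolic chaperonin, named CCT or TRiC, was described in embryonic mouse ventricles through its 8 subunit genes, Tcp1, Cct2, Cct3, Cct4, Cct5, Cct6a, Cct7 and Cct8. Members were taken as every probe set that the array annotation assigns to one of these symbols alone, which gave 25 of the 45101 probe sets on the array, for 8 of the 18193 genes with a symbol of their own. The study set 3 ventricle samples of skNAC knockout embryos against 3 of wild-type littermates. skNAC is a muscle form of the nascent polypeptide-associated complex protein made by Naca, and the knockout is a targeted deletion. All embryos were of the 129SvEv strain at stage E11.5, before the death with cardiac defects that the labels place by E12.5. Biotin-labelled material amplified from 500 ng of RNA was hybridised to 1-colour Affymetrix mouse arrays. Arrays are called knockout 1, 26 and 66 and wild-type 13, 23 and 57, after the numbers in their titles. Litters are not assigned to samples, and whether a sample was 1 heart or a pool is unknown, so the spread between arrays may be partly technical.

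CCT is built from a pair of stacked rings, each holding 1 copy of 8 related subunits in a fixed order. It encloses newly made proteins and folds them with ATP, and actin and tubulin are its best known clients. Heart muscle makes large amounts of actin for its thin filaments, and dividing cells make tubulin for the spindle. The question was whether transcripts of the subunits move together between knockout and wild-type ventricles. The difference of Cct3 on these 6 arrays was known when the group was chosen. Differences between genotypes are therefore given for the subunits as a description, with no test of their own.

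Of the 8 genes, 7 had an upstream sequence in the RefSeq promoter table of build GRCm38.p6, in 9 windows, and Cct4 did not. The 250 bases before the start site of 3 subunits are shown because these genes cover the range of the differences below: Cct3 had the largest difference on the brightest probe sets, Cct7 the lowest, and Cct8 lay closest to 0. They lie at chr3:88296885-88297134 on the plus strand for Cct3, chr6:85451255-85451504 on the plus strand for Cct7 and chr16:87495870-87496119 on the minus strand for Cct8. Capitals mark the letters of a CCAAT box (CCAAT or ATTGG) or a GC box (GGGCGG or CCGCCC).
Cct3: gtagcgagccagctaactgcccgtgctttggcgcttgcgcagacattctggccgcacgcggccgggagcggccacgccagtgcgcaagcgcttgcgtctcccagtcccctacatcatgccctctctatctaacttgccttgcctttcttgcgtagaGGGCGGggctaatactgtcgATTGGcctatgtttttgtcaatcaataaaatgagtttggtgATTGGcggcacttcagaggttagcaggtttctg
Cct7: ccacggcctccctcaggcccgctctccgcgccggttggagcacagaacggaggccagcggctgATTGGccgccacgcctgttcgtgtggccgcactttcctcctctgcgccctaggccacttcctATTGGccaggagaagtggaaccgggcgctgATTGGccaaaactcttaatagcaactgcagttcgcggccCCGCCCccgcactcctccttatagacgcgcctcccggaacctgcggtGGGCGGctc
Cct8: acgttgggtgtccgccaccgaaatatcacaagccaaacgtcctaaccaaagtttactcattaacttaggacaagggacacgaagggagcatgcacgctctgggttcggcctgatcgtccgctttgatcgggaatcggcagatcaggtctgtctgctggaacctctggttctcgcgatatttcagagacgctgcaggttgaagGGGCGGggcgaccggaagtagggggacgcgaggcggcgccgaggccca

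Among 5 motifs searched on both strands, the GC box was the one found in all 7 genes. It was present in 8 of the 9 windows, against 32.7% of all 32851 windows of this length in the table. CCAAT letters were found in 4 of the 9 windows, those of Tcp1, Cct3, Cct6a and Cct7, and in 33.9% of all windows. In the Cct3 window they begin 74 and 33 bases before the start, and in the Cct7 window 187, 125 and 95 bases before it. An ETS core (CCGGAA or TTCCGG) was found in 5 of the 9 windows, 1 each of Tcp1, Cct2, Cct5, Cct7 and Cct8, and in 12.0% of all windows. The paired heat shock motif (GAANNTTC or TTCNNGAA) was found in 2 of the 9 windows, 1 each of Cct2 and Cct5, and in 12.8% of all windows. None of the 9 windows held TATAAA or TTTATA, which 12.4% of all windows held. The median GC content was 59.2% over the member windows and 52.4% over all windows. Different motifs can share letters at their ends, and matches are a description of these windows only.

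All 8 subunits gave bright signals in both genotypes. Values are MAS5 probe set signals, which are linear intensities with the same trimmed mean on every array as deposited, and signals of different probe sets cannot be ranked as amounts of RNA. A probe set was kept when its mean signal lay above that of the median probe set, 95.2, which left 22518 probe sets and 22 of the 25 members. For each subunit the brightest kept probe set is given first, and all 8 of these lay in the brightest 10% of kept probe sets. Differences are given ± SE on log2(signal + 16), with positive values for higher signal in knockout. Knockout 66 stood apart on the first principal component of all kept probe sets, at 55.9 against -24.7 to 4.79 for the other arrays, and Cct3 was at 0.44 and Cct4 at 0.29 without it.

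Cct3, the gamma subunit, had the largest difference of the 8. Its brightest probe set, 1448178_a_at, read 10617, 11956 and 11778 in knockout 1, 26 and 66, against 7740, 8738 and 8460 in wild-type 13, 23 and 57. Every knockout array lay above every wild-type array. The means were 11450 ± 727 in knockout and 8313 ± 515 in wild-type (SD, n = 3 each), 37.7% higher in knockout, with a log2 difference of 0.46 ± 0.09.

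Tcp1, the alpha subunit, which sits next to Cct3 in the ring and was the first to be identified in mouse, showed close to no difference. It read 6770, 6584 and 6089 in the knockout arrays and 6882, 6336 and 5965 in the wild-type arrays, and the genotypes overlapped. The log2 difference was 0.02 ± 0.09. Cct6a, the zeta subunit and the other ring neighbour of Cct3, read 6175, 5844 and 4407 in the knockout arrays and 5659, 5310 and 4729 in the wild-type arrays. Knockout 66 was below all wild-type arrays and the other 2 knockout arrays above them, which left a difference of 0.05 ± 0.13. A second Cct6a probe set gave 0.09 ± 0.09.

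Cct4, the delta subunit, which adjoins Tcp1 in the ring, was the other gene whose brightest probe set separated the genotypes. It read 4306, 4443 and 3908 in the knockout arrays and 3864, 3692 and 3224 in the wild-type arrays, a narrow gap between the lowest knockout array and the highest wild-type array. The log2 difference was 0.23 ± 0.10. Cct2, the beta subunit beside Cct4, read 6399, 6476 and 5782 in the knockout arrays and 6048, 5638 and 5078 in the wild-type arrays. The arrays overlapped through knockout 66, at a difference of 0.16 ± 0.10. This probe set, 1433535_x_at, has an ending that marks probes which may also bind other transcripts. Without _x_at and _s_at probe sets Cct2 was at 0.05. Cct5, the epsilon subunit, whose mutation causes a sensory neuropathy in humans, read 4687, 4640 and 4200 in the knockout arrays and 4235, 4219 and 3857 in the wild-type arrays, also with an overlap through knockout 66. Its difference was 0.13 ± 0.09.

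Cct7, the eta subunit, was the one gene below 0. It read 4155, 4270 and 3516 in the knockout arrays and 4431, 4294 and 3692 in the wild-type arrays, and the difference of -0.06 ± 0.11 lay within the spread of either genotype. Cct8, the theta subunit next to Cct7, read 2396, 2332 and 1773 in the knockout arrays and 2309, 2246 and 1875 in the wild-type arrays. Its difference was 0.01 ± 0.14, and the knockout arrays enclosed the wild-type ones.

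**Figure D1:**
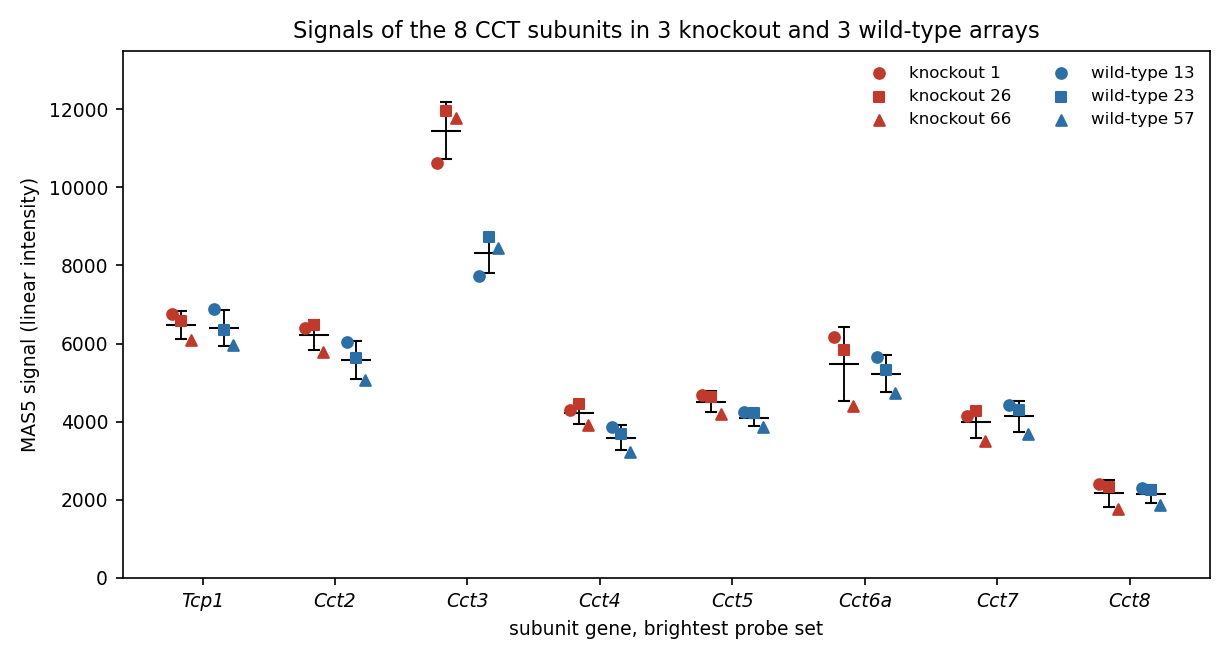
MAS5 signal (linear axis from 0) of the brightest probe set of each CCT subunit, with knockout arrays in red to the left of wild-type arrays in blue, and black bars for the mean ± SD of 3 arrays. Cct3 shows the widest gap, 11450 in knockout against 8313 in wild-type, and in most subunits knockout 66 and wild-type 57 (triangles) are the lowest arrays of their genotype.

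Taking the 8 subunits on their brightest probe sets, 7 were above 0 and 1 below, with a median log2 difference of 0.09. With 1 array left out the count was 4 without knockout 1 or wild-type 57, 5 without knockout 26 and 8 without knockout 66, and the median ran from 0.036 without wild-type 57 to 0.19 without knockout 66. Over all 11661 genes with a kept probe set 50.4% were above 0 with a median of 0.0023, and over the 1407 genes in the brightest 10% of kept probe sets 64.2% were above 0 with a median of 0.04. In that bright class the differences had a 10th percentile of -0.13 and a 90th percentile of 0.20. Cct3 and Cct4 lay above that range and the other 6 subunits within it. Without Cct3 the median of the remaining 7 subunits was 0.05, near that of the bright class. Genotypes did not overlap, with knockout higher, in 2 of the 8 subunits, where the share was 5.4% over all genes and 11.9% over the bright class. Since the difference of Cct3 was known when the group was chosen, nothing is read from these shares.

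**Figure D2:**
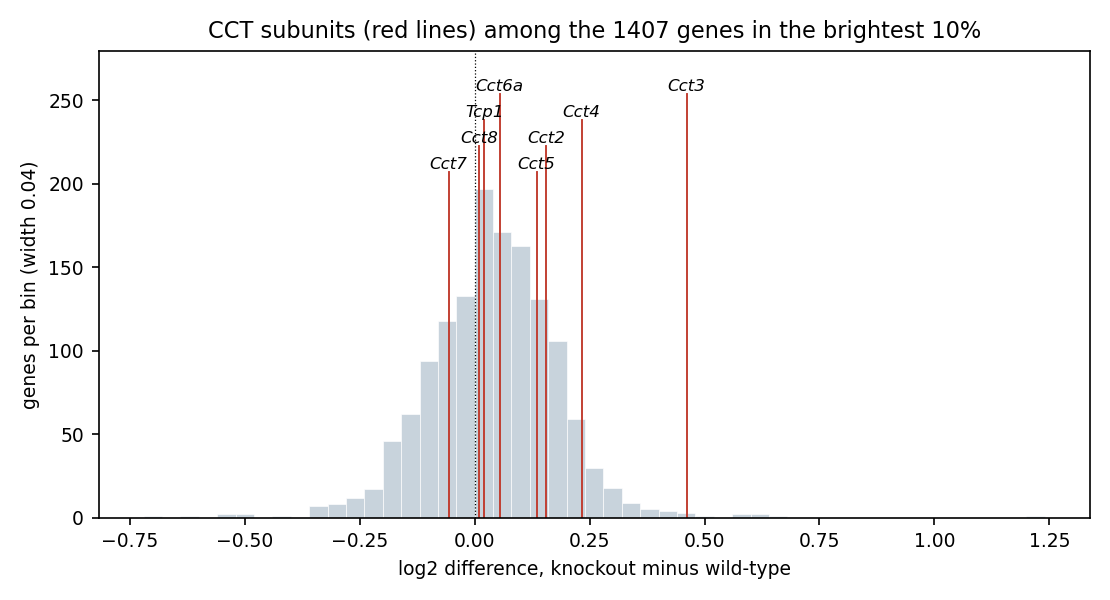
Histogram of log2 differences, knockout minus wild-type (x axis), for the 1407 genes in the brightest 10% of kept probe sets (y axis, genes per bin), with a red line for each CCT subunit. Cct3 at 0.46 and Cct4 at 0.23 lie to the right of most genes, and the other 6 subunits lie within the bulk of the distribution.

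In limma, fitted over all 22518 kept probe sets with Benjamini-Hochberg adjustment, 0 of the 22 member probe sets passed an adjusted p of 0.05, where 0% of the table passed. At an unadjusted p under 0.05 there were 2 member probe sets, the brightest ones of Cct3 and Cct4, both higher in knockout. The table held 1083 such probe sets, or 4.81%, with 2.19% of all probe sets higher in knockout at that p. With array quality weights, which lowered knockout 66 to 0.335 and raised knockout 26 to 2.53, 6 probe sets of the table passed. In the weighted fit the differences were 0.48 for Cct3, 0.26 for Cct4 and -0.0064 for Cct7, and none of the 8 brightest member probe sets was among the 6. For Cct3 the adjusted p of that weighted limma fit was 0.067 over probe sets, but 0.047 when adjusted over genes. The difference of Cct3 was known when the group was chosen, so nothing is read from these values.

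The other probe sets of a subunit often departed from the brightest one. Over the 22 kept member probe sets, 17 were above 0 and 5 below, against 48.2% above 0 in the table. The genotypes did not overlap in 4, with 3 higher in knockout and 1 lower, where the shares over the table were 4.97% and 5.55%. Of the 5 genes with more than 1 kept probe set, Cct3, Cct4 and Cct7 had members of both signs.

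For Cct3, the 5 other kept probe sets gave smaller or opposite values. The next brightest, 1416024_x_at, read 6620, 6278 and 8813 in the knockout arrays and 6643, 6059 and 6243 in the wild-type arrays, at 0.18 ± 0.12, and knockout 66 alone stood above the wild-type range. Probe set 1459987_s_at read 4824, 3672 and 3737 in the knockout arrays and 3646, 3655 and 3471 in the wild-type arrays, at 0.17 ± 0.12, and here knockout 1 was the high array while the other 2 were just above wild-type. These 2 probe sets therefore placed their high signal in different knockout arrays. Dimmer ones gave 0.13 ± 0.12 (1426067_x_at), -0.26 ± 0.17 (1449645_s_at) and 0.29 ± 0.30 (1439679_at). The mean over the 6 kept Cct3 probe sets was 0.16. Which stretch or isoform of the transcript each probe set reads was not examined.

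Cct4 had the widest range of the 5 genes with several kept probe sets. Its second brightest probe set, 1433447_x_at, gave 0.14 ± 0.10, but 3 others were below 0. Probe set 1456082_x_at read 1208, 1251 and 1426 in the knockout arrays and 1505, 1559 and 1468 in the wild-type arrays, at -0.22 ± 0.11, with every knockout array below every wild-type array. Probe sets 1438560_x_at and 1456572_x_at gave -0.11 ± 0.15 and -0.50 ± 0.33, and the dim 1430034_at gave 0.45 ± 0.27. The mean over the 6 kept Cct4 probe sets was -0.0022. An ending in _x_at marks probes that may also bind other transcripts, so the share of Cct4 in the signals of the 4 such probe sets is uncertain.

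The remaining genes with several probe sets were less divided. Cct2 gave 0.05 ± 0.18 and 0.13 ± 0.12 on its other 2, on the same side as the brightest. Cct7 had a second probe set, 1415817_s_at, at 0.18 ± 0.11, opposite to its brightest, with 1426, 1492 and 1286 in the knockout arrays and 1242, 1164 and 1306 in the wild-type arrays. The 3 member probe sets that were not kept, 1 each of Cct3, Cct4 and Cct8, had means of 6.83 to 16.2 in knockout and 8.27 to 12.8 in wild-type, far below the signal at which probe sets were kept. No difference is given for them.

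**Figure D3:**
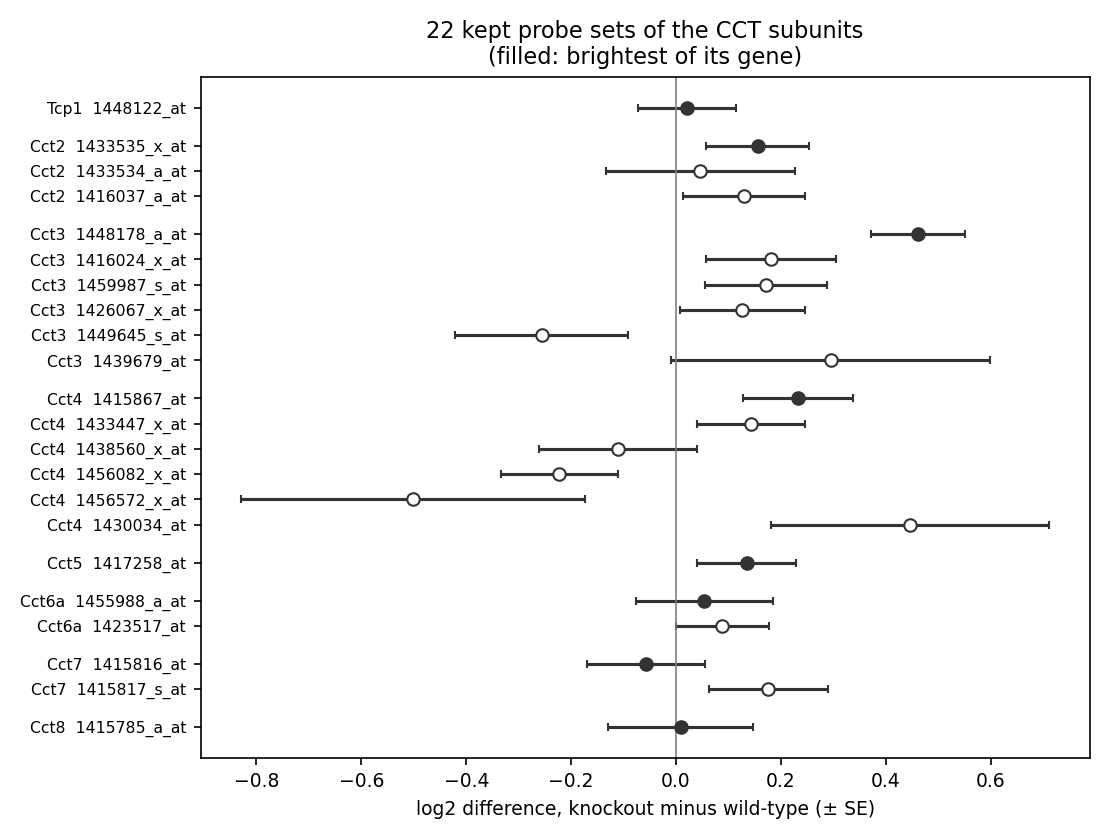
Log2 difference, knockout minus wild-type ± SE (x axis), of the 22 kept probe sets, grouped by subunit down the page, with filled points for the brightest of each gene. The 6 probe sets of Cct3 run from -0.26 to 0.46 and the 6 of Cct4 from -0.50 to 0.45, while the 3 of Cct2 lie between 0.05 and 0.16.

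Under the authors' scaling, the brightest probe sets of 7 subunits moved together within each genotype, and that of Cct3 did not. This comparison uses the deviation of each array from the mean of its own genotype, so the difference between genotypes does not enter. All 21 pairs among the 7 subunits other than Cct3 had a Pearson r of 0.84 or more over the 6 arrays, with a median r of 0.93 and a median Spearman rho of 0.83. The closest pair was Cct5 and Cct8, at r = 0.99, followed by Cct2 and Cct4 at 0.99, with Cct2 read on its _x_at probe set. The 7 pairs with Cct3 all had an r below 0, from -0.69 with Tcp1 to -0.34 with Cct7, with a median of -0.43. Their rho ran from -0.54 with Cct5 and Cct6a to 0.09 with Cct4, with a median of -0.37. All 7 rest on 1 Cct3 probe set, 1448178_a_at, whose r with the other kept Cct3 probe sets ran from -0.73 (1459987_s_at) to 0.56 (1439679_at). For comparison, the median r over pairs of genes in the brightest 10% was 0.25, with 14.2% of pairs above 0.8, and over pairs of all genes it was -0.00092. The points share arrays, amplification and scaling, and 6 arrays in 2 genotypes leave little freedom, so these are descriptions without a p-value.

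The common movement of the 7 subunits was lowest in 1 array of each genotype. Their mean log2 deviation from the wild-type mean was 0.17 in knockout 1, 0.16 in knockout 26 and -0.08 in knockout 66, against 0.10 in wild-type 13, 0.04 in wild-type 23 and -0.14 in wild-type 57. Knockout 66 and wild-type 57 thus had the lowest values of their genotypes, and they had the highest array medians, 114 and 111. The median deviation of the whole bright class ran the same way, at 0.10, 0.06 and -0.03 in knockout 1, 26 and 66, against 0.05, 0.03 and -0.08 in wild-type 13, 23 and 57. Cct3 deviated by 0.35, 0.53 and 0.50 in the same knockout arrays, against -0.10, 0.07 and 0.03 in the wild-type arrays. The gap between Cct3 and the mean of the other 7 was 0.19, 0.37 and 0.59 in knockout 1, 26 and 66. In wild-type 13, 23 and 57 it was -0.20, 0.04 and 0.16, which put every knockout array above every wild-type array, narrowly for knockout 1. Nothing is read from this gap, since the difference of Cct3 was known when the group was chosen.

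The correlation among the 7 differed with the scaling, in both directions. With 1 array left out, the median r of the 21 pairs was 0.94 without knockout 66 and 0.92 without wild-type 57. With both left out it was 0.53, and 0.21 over all 28 pairs, against 0.060 in the bright class. These 2 arrays are the ones in which the mean of the subunits deviated farthest, so leaving out both lowers the correlation by construction. After quantile normalization, which gives every array the same distribution of signals, the median over the 28 pairs was 0.25 and over the 21 pairs 0.38, with 19 of 21 still above 0, where the bright class had a median of 0.0015. After centring on array medians the median of the 21 pairs was 0.98, with a lowest r of 0.96. There the 7 pairs with Cct3 were all above 0, with a median of 0.74, and the bright class had a median of 0.79. On its brightest probe set, Cct3 thus had a negative r with each of the other subunits under the authors' scaling, but a positive r under median centring. Under quantile normalization its 7 pairs had a median of -0.45, and 1 of them was above 0.

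**Figure D4:**
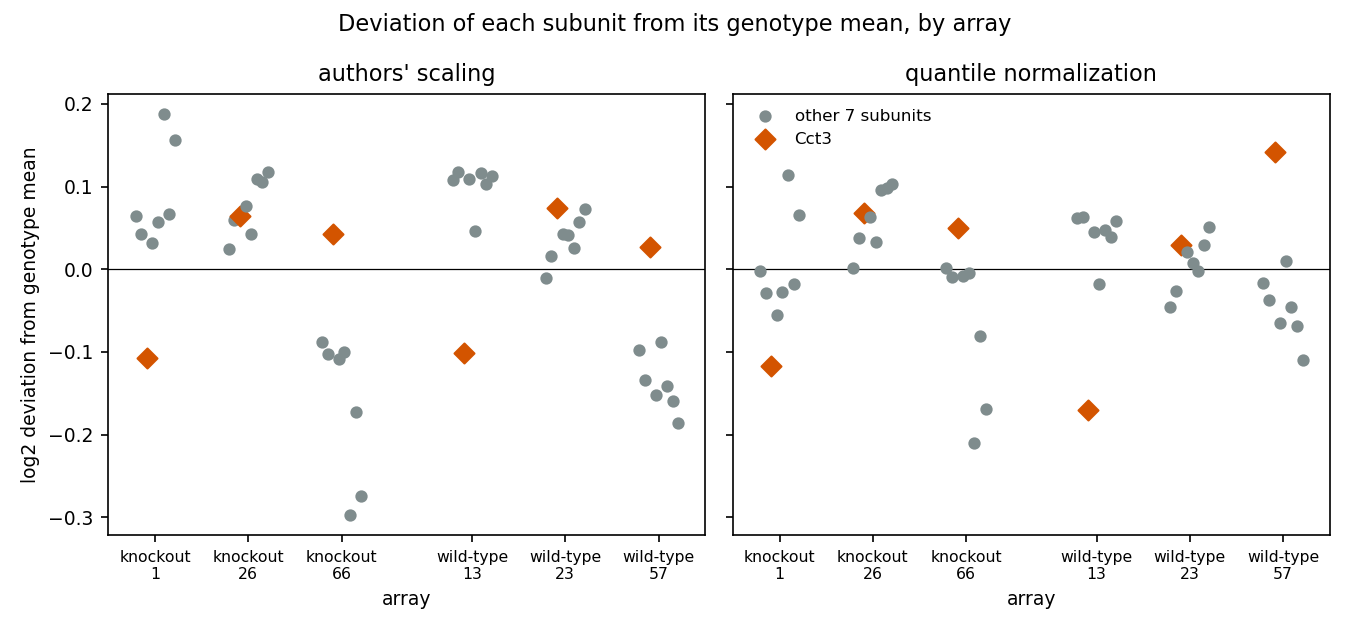
Log2 deviation of the brightest probe set of each subunit from the mean of its genotype (y axis) in knockout and wild-type arrays (x axis). The authors' scaling is at left and quantile normalization at right, with Cct3 as orange diamonds and the other 7 subunits as grey points. At left the 7 grey points all lie below 0 in knockout 66 and wild-type 57, where Cct3 lies above 0. At right the grey points of those arrays lie closer to 0. There all but Tcp1 in knockout 66 and Cct5 in wild-type 57 remain below it. In the other arrays at right they lie on both sides of 0, except in knockout 26, where all are above it.

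Probe sets of 1 gene agreed less well with each other than the 7 brightest probe sets of different genes. The 3 Cct2 probe sets had r from 0.39 to 0.80 about their genotype means, and the 2 of Cct6a had 0.73. Those of Cct3 ranged from -0.97 to 0.74 and those of Cct4 from -0.81 to 0.99, with a median r of 0.28 over all 35 such pairs. Most of these pairs were of Cct3 and Cct4, at medians of 0.0066 and -0.32, and they take in probe sets dimmer than the brightest ones. The median coefficient of variation of the 8 was 6.47% in knockout and 8.85% in wild-type, where the medians of the bright class were 9.15% in knockout and 7.46% in wild-type. In 5 of the 8, Cct3, Cct5, Cct6a, Cct7 and Cct8, it was nonetheless higher in knockout than in wild-type. It was highest in knockout for Cct6a, at 17.2%, and Cct8, at 15.8%, the subunits in which knockout 66 was lowest relative to the rest.

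The genes whose pattern over the 6 arrays was most like the mean of the 8 subunits were Slc36a4, an amino acid transporter, Aars, the alanyl-tRNA synthetase, Dnaja2, an Hsp70 co-chaperone, Psmc2, an ATPase subunit of the proteasome cap, and Gtf3c6, a subunit of an RNA polymerase III factor. They were the 5 of highest Pearson r among 11085 named genes, with r from 0.989 to 0.998 and Spearman rho from 0.943 to 1. In all, 50 genes had an r above 0.95. Dnaja2 read 4729, 4710 and 4247 in the knockout arrays and 4472, 4300 and 3986 in the wild-type arrays, and again knockout 66 and wild-type 57 were the lowest of their genotypes. Its log2 difference was 0.10 ± 0.10, and that of Psmc2 was 0.19 ± 0.13 on an _x_at probe set.

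Proteins that work with CCT did not share one direction. No gene of the lists below passed an adjusted p of 0.05 in limma in either direction, as for the table as a whole. Named genes are those of the smallest unadjusted p in each list. Genotypes did not overlap, with knockout higher, in 5.4% of all genes and 11.9% of genes in the bright class. Since the named genes were picked by p, nothing is read from their lack of overlap. Prefoldin hands unfolded actin and tubulin to the chaperonin, and 3 of its 6 kept subunits were above 0 and 3 below, with a median log2 difference of 0.05. Vbp1 averaged 3407 ± 646 in knockout and 2935 ± 255 in wild-type (SD, n = 3 each), a difference of 0.20 ± 0.14. Pfdn5 averaged 1747 ± 284 in knockout, against 2076 ± 204 in wild-type, a difference of -0.26 ± 0.14, and the arrays of both genes overlapped. The other 3 kept Pfdn5 probe sets lay between -0.22 and 0.76. Of the phosducin-like proteins, which bind CCT and adjust its folding, 3 of 4 were kept. Txndc9 read 2448, 2237 and 2178 in the knockout arrays and 1940, 2077 and 1793 in the wild-type arrays, with no overlap and a difference of 0.24 ± 0.11 on an _x_at probe set, and its other 2 kept probe sets were at -0.0091 and 0.17. Pdcl was at -0.12 ± 0.13, with its other kept probe set at -0.27.

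The tubulin folding cofactors, which take tubulin from CCT and assemble its dimer, had 5 of 6 kept genes above 0 and a median of 0.17. Tbcd read 787, 1045 and 761 in the knockout arrays and 663, 522 and 618 in the wild-type arrays, without overlap. Its difference was 0.50 ± 0.16 on an _x_at probe set. Its other kept probe set was at -0.16. Tbce was at 0.26 ± 0.15 with overlapping arrays. The median over all genes was 0.0023, with 50.4% above 0. Knockout lay wholly higher in 2 of the 6 cofactors, beside 5.4% of all genes and 11.9% of the bright class.

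Among clients, the actins had 4 of 6 genes above 0 and a median of 0.13. Acta2, the smooth muscle actin that early heart muscle also expresses, read 15804, 16070 and 17884 in the knockout arrays and 13364, 14618 and 13247 in the wild-type arrays, without overlap, at 0.27 ± 0.09. Actg1, a cytoplasmic actin, gave 0.18 ± 0.08, and its arrays did not overlap either. The tubulins had 5 of 10 kept genes on each side of 0, with a median of 0.04. Tubb5, the main beta tubulin of dividing cells, read 10046, 10379 and 11146 in the knockout arrays and 9261, 9355 and 8955 in the wild-type arrays (0.19 ± 0.08). Tuba1a gave 0.12 ± 0.08 on an _x_at probe set, and neither gene overlapped between genotypes. The 10 other reported clients, regulators of signalling and of the cell cycle, had a median of 0.03, with Stat3 at 346 ± 9.50 in knockout and 438 ± 10.4 in wild-type (-0.33 ± 0.14; its other kept probe set was at 0.09) and Fzr1 at -0.39 ± 0.20. Neither of these 2 overlapped between genotypes. In all, knockout lay wholly higher in 3 of the 6 actins, 2 of the 10 kept tubulins and 0 of the 10 other clients, beside 5.4% of all genes and 11.9% of the bright class. It lay wholly lower in 2 of the 10 other clients, beside 5.55% of all kept probe sets.

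The 4 kept chaperonin relatives had a median of 0.08, and the 2 kept genes of the heat shock list a median of 0.18. Hspd1, the mitochondrial chaperonin of the same fold, read 7905, 8458 and 8478 in the knockout arrays and 7051, 7533 and 7122 in the wild-type arrays, without overlap, at 0.19 ± 0.08. Mkks, a chaperonin-like protein, was at -0.14 ± 0.16, with its other kept probe set at -0.24. Hspa8, the constitutive Hsp70, was at 0.19 ± 0.11 on an _x_at probe set, with its other 3 kept probe sets between -0.15 and 0.18. The heat shock factor gene Hsf2 was at 0.18 ± 0.24, and the arrays of both genes overlapped.

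**Figure D5:**
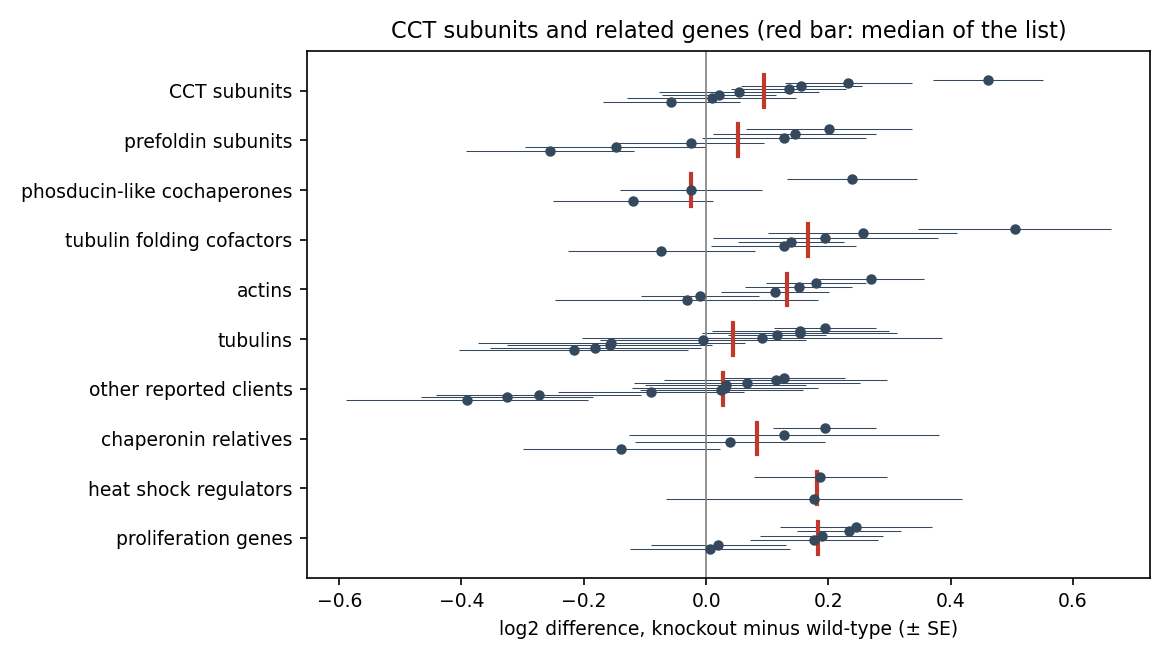
Log2 differences, knockout minus wild-type ± SE (x axis), of the brightest kept probe set of each gene, in rows for the CCT subunits, their partners and clients, other chaperonins and proliferation genes, with a red bar at the median of each row. The medians lie between -0.03 for phosducin-like proteins and 0.18 for proliferation genes, and the CCT row has its median at 0.09 with Cct3 apart at 0.46.

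Other measures also separated the genotypes and are given beside the subunit differences. On their brightest probe sets the 6 kept proliferation genes were all above 0, from 0.0065 for Mki67 to 0.25 for Rrm2, with a median of 0.18. The Rrm2 one is an _x_at probe set. Other kept probe sets were at -0.40 for Top2a and -0.03 for Mcm2, and at 0.18 and 0.38 for Rrm2. The summed signal was 19746 to 21021 in knockout arrays and 17477 to 18375 in wild-type arrays. Pcna, the brightest of these genes, averaged 8087 in knockout and 6877 in wild-type. Of 6 markers of cushion and mesenchyme, 5 were below 0, and their summed signal was 2405 to 3019 in knockout arrays and 3803 to 3986 in wild-type arrays. The ratio of the 3' to the 5' control probe set was 2.49 to 2.57 in knockout and 2.05 to 2.24 in wild-type for actin, and 1.28 to 1.45 in knockout and 1.12 to 1.20 in wild-type for Gapdh. Their part in the differences of the subunits was not tested. In bulk tissue a different number of cells of a type and a different amount of RNA per cell cannot be told apart.

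All 9 cardiomyocyte markers were kept, with a summed signal of 106499 to 121155 in knockout arrays and 101261 to 111717 in wild-type arrays, and none of 3 liver markers, 1 of 3 neuron markers and 2 of 3 macrophage markers were. Summed signals of erythroid, endothelial and epicardial markers overlapped between genotypes. The labels could not be checked on the targeted gene, since the brighter Naca probe set, whose target transcript is unknown here, had signals of 8892 ± 258 in knockout and 8412 ± 142 in wild-type. Without knockout 66, the array that stood apart, all 8 subunits were above 0, with a median of 0.19, and 11 of the 22 member probe sets lay wholly higher in knockout, where 2596 of all 22518 did and 31.1% of the brightest 10%, a class to which 16 of the 22 members belong. The genes of the bright class then had a median of 0.08. Leaving out another array gave 4 such member probe sets without knockout 1 (17.8% of the brightest 10%), 3 without knockout 26 (16.5%), 7 without wild-type 13 (20.6%), 4 without wild-type 23 (18.6%) and 4 without wild-type 57 (14.7%). With all arrays there were 3, against 13.5% of the brightest 10%.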

How the data were processed

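The authors made the deposited intensity values, linear MAS5 signals per probe set, with the GCOS software, per the submitters' processing notes. Tool versions and the scaling target were not stated there. On every array the mean after trimming 2% at each end was 250. Arrays give no read depth; with 3 per genotype the median SE over kept probe sets was 0.206 (log2), and p-values measure only the spread between these samples.

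Values were transformed as log2(intensity + 16), which understates differences of dim genes. Of 45101 probe sets, 64 controls were removed, and those with a mean log2 signal above the median, 95.2 as intensity, were kept. limma 3.58.1 under R 4.3.3 (lmFit, eBayes with trend, two-sided) was fitted to all 22518 of them with Benjamini-Hochberg adjustment at 0.05 and was tested on simulated data. The platform annotation gave 1 symbol for 34958 probe sets, several for 932 and none for 9211, and all 8 members matched RefSeq by Entrez identifier. Matplotlib 3.10.9 (Python 3.11.15) made the figures, and motif letters were searched in the 250 bases before each RefSeq start.

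The members and lists were chosen with earlier results of these data known. Named genes were all members, the 2 genes of smallest unadjusted p in each list of partners, clients and related chaperones, and the 5 genes of most like pattern. Alternatives were pseudocounts of 1 and 64, no filter or a filter at the 70th percentile, quantile normalization, median centring, dropping the _x_at and _s_at probe sets, array weights, other eBayes settings, a threshold of 0.1, averaging all probe sets per gene and each array left out. The split of the correlations by Cct3 was added after seeing the data.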

Additional observations from a re-analysis of the deposited data

How the results depend on the processing

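The median log2 difference of the 8 subunits stayed above 0 in all 15 alternatives run, from 0.036 without wild-type 57 to 0.19 without knockout 66. It was 0.044 after quantile normalization and 0.050 after dropping _x_at and _s_at probe sets. The number of subunits above 0 ranged from 4 to 8 with 1 array left out: 4 without knockout 1 or wild-type 57, 5 without knockout 26, 8 without knockout 66 and 7 in the others, and 5 after quantile normalization. The number of member probe sets whose genotypes did not overlap ranged from 4 to 12 with 1 array left out, 12 without knockout 66 and 9 without wild-type 13, and was 2 with median centring and 2 after dropping _x_at and _s_at probe sets, where 12 members remained to be counted. The median correlation over the 28 pairs was 0.25 after quantile normalization and 0.78 when probe sets were averaged per gene, but 0.98 with median centring, and 0.90 to 0.94 with 1 array left out. In limma the table gave 6 calls with array quality weights, 2 without knockout 1 and 0 in the other 15 alternatives, against 0 in the fit described above. Single subunits differed in sign from the values above in some settings. Cct4 was at -0.0022 when probe sets were averaged per gene, Cct7 at 0.060 there and at 0.030 without knockout 66. Tcp1, Cct8 and Cct6a changed sign in 3, 4 and 3 of 15 alternatives, among them quantile normalization for Tcp1 (-0.057) and Cct8 (-0.020). Cct2, Cct3 and Cct5 kept their sign in all 15, Cct3 between 0.16 (probe sets averaged per gene) and 0.51 (without knockout 1), and 0.36 after quantile normalization. The causes were not tested. No paired analysis was possible because the genotypes share no replicate number. Signals near the filter are least certain, which touches the dimmest probe sets of Cct3 and Cct4.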
